A study of Homo sapiens with 4 samples.

Results

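The comparison was between 2 invasive cell populations that were derived independently from the same glioblastoma line, and they make up 2 of the 4 RNA-seq libraries of the series. U87MG is an established human malignant glioblastoma line. Parental cells spent 1 week on organotypic slices of brain, in a medium for neural stem cells to which FGF and EGF were added. Cells that had invaded were then isolated and expanded in vitro for 3 to 5 days before RNA extraction. Those populations are called invasive clone 1 and invasive clone 2. Control 1 and control 2 are the poorly invasive populations isolated from the same kind of slice culture, and they serve here as reference levels only. All 4 populations carry the U87MG background and went through the slice and the expansion. The sources used here do not say whether a clone was grown from 1 cell, nor the species of the slices.

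Genes were chosen by listing and depth and not by their values. The raw count tables of both clones listed 29387 genes, and 14117 of them, 12280 protein-coding, had 20 or more counts over the 2 libraries and were compared. Each level is in CPM, a gene's count scaled to its library's total, and each difference is the log2 of clone 2's CPM over clone 1's. A positive value therefore means more in clone 2, and 1 on this scale is 2-fold. Each clone is 1 library, so no test across replicates exists and no p-value is given. The 95% intervals are exact Clopper-Pearson intervals that cover counting error only, not the variation between cultures. According to the design text, control 1 was analysed together with clone 1 and control 2 together with clone 2, so a difference between clones and one between the pairs' handling cannot be told apart. In bulk RNA, a smaller share of cells with a transcript and less of it per cell cannot be told apart either.

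Glioblastoma cells infiltrate brain tissue as single cells and chains, and mesenchymal lines such as U87MG make their own matrix, proteases and cytokines. Cells that settle in a slice or in a dish also adjust stress programs: NRF2 drives antioxidant genes, ATF4 drives amino acid import and synthesis, and TGF-beta and YAP drive matrix and cytoskeletal genes. MHC class II molecules, which present extracellular peptides, are made in some glioma cells under the control of the transactivator CIITA.

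The libraries held between 13829871 and 17817756 counts, with 15466900 in clone 1 and 13829871 in clone 2. Mitochondrial transcripts took 3.28% of the counts in each clone. Some defining markers of other brain and blood cells were at 0 counts in both clones, which allows up to 0.194 CPM in clone 1 and 0.217 CPM in clone 2. They were the microglial gene P2RY12, the leukocyte genes CD3E, NKG7 and CD52, the oligodendrocyte genes MOG and MAG, and AQP4, CLDN5 and STMN2 of astrocytes, endothelium and neurons. Other markers of the same lists were present. The synaptic gene SNAP25 was at 40.0 CPM in clone 1 and 26.3 in clone 2, GAD1 at 17.6 and 20.8, CNP at 123 and 88.9, GJA1 at 245 and 242 and CLU at 461 and 475. The pericyte list, led by CSPG4, summed to 238 CPM in clone 1 and 172 in clone 2, with 259 and 189 in the controls. Their part in the results was not tested.

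The clones were close over most genes. Of the 14117 compared, 86.7% lay within 1.5-fold and the median difference was -0.02. Clone 2 was at least 2-fold higher for 330 genes, 2.34% of those compared, and at least 2-fold lower for 269, 1.91%. With the whole counting interval past 2-fold, 50 genes remained higher, 0.354%, and 41 lower, 0.29%. The interval lay above 0 for 2885 genes and below 0 for 3372, so an interval away from 0 was common among all genes. The list counts below are to be read beside these all-gene values. Calls were concentrated among thinly counted genes: 15.5% of genes with 20 to under 100 counts passed 2-fold, against 2.87% at 100 to under 1000. Among the 6092 genes with 1000 or more counts, 24 were 2-fold higher in clone 2 and 11 were 2-fold lower. The authors' own normalized values, deposited for 10252 of the compared genes, sat 0.17 lower on the log2 scale than the CPM ratios, and they gave 39 higher and 94 lower where CPM over the same genes gave 66 and 46. Directions below are therefore relative to CPM. Only some list medians were recomputed with the authors' values, and those that changed sign are named as such.

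**Figure D1:**
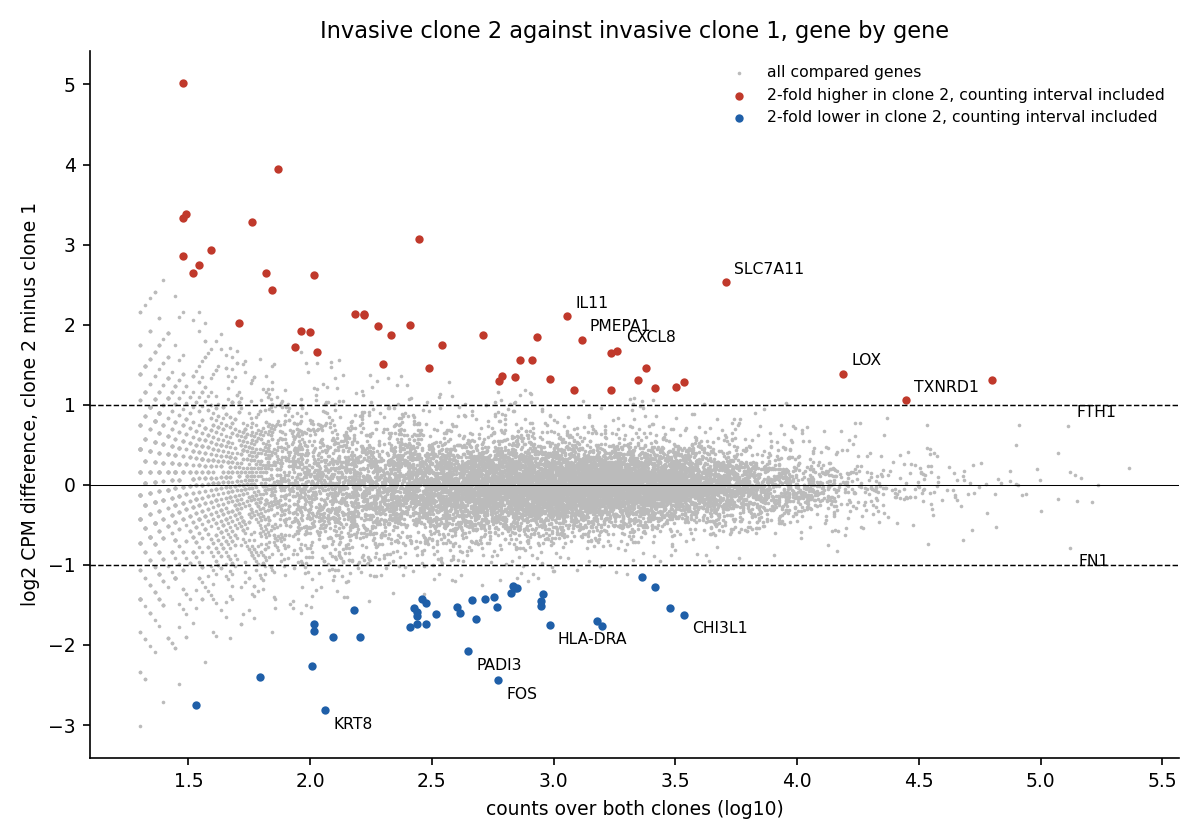
Each point is 1 of the 14117 compared genes. The x axis is the log10 of its counts over both clones, the y axis is the log2 CPM difference (clone 2 minus clone 1), and the dashed lines mark 2-fold. Red and blue points are the 50 higher and 41 lower genes whose whole counting interval lies past 2-fold, and the spread narrows as counts grow.

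The 2 control libraries differed from each other more often than the clones did. Of the 13747 compared genes that also had 20 or more counts over the controls, 375, or 2.73%, were 2-fold higher in control 2 and 264, or 1.92%, were 2-fold lower. Over the same 13747 genes, 261 were higher in clone 2 and 233 lower. Among those 261 genes higher in clone 2, 51 were also 2-fold higher in control 2 and 14 were 2-fold lower there. Among the 233 genes lower in clone 2, 45 were also 2-fold lower in control 2 and 17 were 2-fold higher. Across these 13747 genes, which are not independent replicates, the clone and control differences had a Pearson r of 0.275, and no library is shared between them.

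Placing the controls beside each called gene separated the genes by which library was the odd one out. Of the 330 genes higher in clone 2, clone 2 stood 2-fold or more above each of the other 3 libraries for 120, and clone 1 stood below all the others for 15. Of the 269 lower in clone 2, clone 2 stood below the other 3 libraries for 50 and clone 1 stood above them for 60. The counting interval between the clones was past 2-fold for 26 of the 120, 1 of the 15, 13 of the 50 and 11 of the 60. The genes were called on the clone ratio, which by itself favours a clone as the outlying library. No share of these classes over all genes is given here. Of the other genes, whatever their counts in the controls, the controls differed by 2-fold in the same direction for 59 and 38 and in the opposite one for 9 and 13. The remaining 127 and 108 genes fell in none of these classes.

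The cystine and amino acid transporters gave the widest difference among well-counted genes. SLC7A11, the cystine/glutamate antiporter that feeds glutathione synthesis, was at 55.5 CPM in control 1, 53.5 in clone 1, 94.8 in control 2 and 309 in clone 2. Clone 2 stood apart from the other 3 libraries, with a difference from clone 1 of 2.53 (interval 2.42 to 2.64). Its partner chain SLC3A2 was at 198, 208, 258 and 418 CPM in the same order, a difference of 1.01 (0.95 to 1.07). SLC7A5, the large neutral amino acid transporter that also pairs with SLC3A2, was at 81.5, 55.1, 95.8 and 128 CPM, so that clone 1 was the lowest library and clone 2 the highest. SLC7A8, another light chain of the same pair, went the other way, at 16.6, 106, 17.3 and 47.7 CPM, so that both clones were above both controls and clone 1 was the highest.

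Other genes driven by ATF4, the transcription factor of amino acid shortage, were also higher in clone 2. Of the list's 30 members, all compared, 5 were 2-fold higher (SLC7A11, TRIB3, SLC7A5, ALDH1L2 and SLC3A2) and none was 2-fold lower, where 4.24% of all genes passed 2-fold in either direction. The counting interval lay above 0 for 20 members and below 0 for 4, and the median was 0.27, against 0.05 between the controls. Asparagine synthetase ASNS was at 37.0 CPM in clone 1 and 72.1 in clone 2, with the controls at 35.8 and 43.1. CHAC1, which degrades glutathione, was at 4.98 and 8.97 CPM, and the glycyl-tRNA synthetase GARS at 251 and 417 CPM. The serine synthesis genes PHGDH and SHMT2 were slightly lower in clone 2, each with a difference of -0.24, so the list did not move as 1 block. With the authors' values the list's median was 0.09. Under them 3 members were 2-fold higher, and SLC3A2, at 0.86, was not among them.

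Several antioxidant genes under NRF2 were higher in clone 2. The list summed to 9673 CPM in clone 1 and 14972 in clone 2, and to 7709 and 11129 in the controls, with the ferritin chains FTH1 and FTL giving most of the difference between the clones. Of 23 compared members, 3 were 2-fold higher (SRXN1, SLC7A11 and TXNRD1) and none was 2-fold lower. Among all genes, 2.34% were 2-fold higher. The interval lay above 0 for 16 members and below 0 for 4, where 2885 of all 14117 genes lay above and 3372 below. The list's median was 0.49 against 0.15 between the controls. Thioredoxin reductase TXNRD1 was at 644 CPM in control 1, 633 in clone 1, 760 in control 2 and 1316 in clone 2. The iron-storage chains FTH1 and FTL had differences of 0.74 each, FTH1 with 3376 CPM in clone 1 and 5626 in clone 2 and FTL with 2114 and 3534. For FTH1 control 2 was also above control 1, at 3909 against 2482 CPM. The quinone reductase NQO1 was at 463 and 792 CPM in the clones but at 350 and 262 in the controls, so it was the controls that went the other way. SRXN1, the sulfiredoxin, rests on 31 counts in all. The members with an interval below 0 were the export pumps ABCC3, at -0.33, and ABCC2, at -0.24, the transketolase TKT and the aldose reductase AKR1B1. SLC7A11 belongs to both of these lists. With the authors' values the list's median was 0.33, TXNRD1 had 0.84 and 1 member was 2-fold higher.

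Promoter sequence is shown for members whose upstream window held the short motif tied to these programs, so that the letters can be read beside the values. The windows are the 250 bases before the annotated start in RefSeq (GRCh38.p14), both strands were searched, and capitals mark the match. The amino acid response motif TGATGNAAN was present in 3 of the 34 windows of the ATF4 list's 21 genes in the table (ASNS, CHAC1 and SLC1A5) and in 3.13% of all 35116 windows. The antioxidant motif TGACNNNGC was present in 5 of the 20 windows of the NRF2 list's 17 genes in the table (GCLM, ME1, PGD and TXNRD1) and in 10.9% of all windows. These matches describe the letters only.
ASNS, chr7:97872409-97872658, minus strand: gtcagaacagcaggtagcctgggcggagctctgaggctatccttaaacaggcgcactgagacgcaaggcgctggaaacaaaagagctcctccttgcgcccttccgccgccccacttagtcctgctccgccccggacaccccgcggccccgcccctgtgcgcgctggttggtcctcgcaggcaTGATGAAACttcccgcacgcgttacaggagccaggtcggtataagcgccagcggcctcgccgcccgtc
CHAC1, chr15:40953221-40953470, plus strand: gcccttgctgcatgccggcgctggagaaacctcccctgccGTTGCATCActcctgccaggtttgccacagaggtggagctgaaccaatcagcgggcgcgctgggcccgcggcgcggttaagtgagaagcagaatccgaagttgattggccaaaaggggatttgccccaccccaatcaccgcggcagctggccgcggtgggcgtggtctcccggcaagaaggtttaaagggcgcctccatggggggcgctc
TXNRD1, chr12:104215529-104215778, plus strand: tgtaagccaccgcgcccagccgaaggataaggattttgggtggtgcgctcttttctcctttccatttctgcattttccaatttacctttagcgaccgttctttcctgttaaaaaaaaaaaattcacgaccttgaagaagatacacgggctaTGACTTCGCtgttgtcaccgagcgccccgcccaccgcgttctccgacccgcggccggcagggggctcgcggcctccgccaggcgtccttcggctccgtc
The match begins 68 bases before the start in ASNS, 210 in CHAC1, where it reads on the other strand, and 99 in TXNRD1.

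MHC class II genes were lower in clone 2, and no class I gene passed 2-fold. HLA-DRA, the invariant alpha chain of HLA-DR, was at 55.1 CPM in control 1, 49.2 in clone 1, 43.6 in control 2 and 14.6 in clone 2. CD74, the invariant chain that escorts class II molecules, was at 141, 149, 111 and 51.0 CPM. Clone 2 alone was low for both, by -1.75 (interval -1.98 to -1.53) and -1.54 (-1.67 to -1.42). HLA-DPA1, at 43.3 CPM in clone 1 and 16.8 in clone 2, and HLA-DQB1, at 13.1 and 3.83 CPM, had the same order of libraries, with clone 2 lowest and the others close together. The transactivator CIITA was at 45.5, 44.4, 29.5 and 21.7 CPM, so it was lower in both libraries of the second pair, and its cofactor RFX5 was at 63.8 CPM in clone 1 and 39.8 in clone 2.

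Of the antigen presentation list's 20 members, 6 were 2-fold lower in clone 2 and none higher (HLA-DRA, CD74, HLA-DPA1, HLA-DRB1, CIITA and HLA-DPB1), all of them class II genes or class II regulators. Among all compared genes, 1.91% were 2-fold lower. The interval lay below 0 for 16 members and above 0 for 2, and the median was -0.39 against -0.03 between the controls. A wider set of 15 class II genes and regulators, written after these values were seen, had 14 compared, 9 of them 2-fold lower and 13 below 0, with RFXAP the exception at 0.06. Most class I members were lower by smaller amounts: HLA-C had a difference of -0.19, HLA-B -0.14 and B2M, the light chain of class I, -0.06. The immunoproteasome subunits PSMB9 and PSMB10 had -0.61 and -0.49, and NLRC5, the class I transactivator, -0.40. The 2 members with an interval above 0 were HLA-E, at 0.17, and the peptide transporter TAP1, at 0.44. Interferon-stimulated genes gave no 2-fold call among 21 compared, with a median of -0.16. The summed microglial marker list was also lower in clone 2, at 35.0 CPM in clone 1 and 19.2 in clone 2. The controls were at 25.1 and 15.8 CPM, so clone 2 was above control 2, unlike for HLA-DRA and CD74. This sum consisted mostly of CSF1R and TMEM119, while P2RY12 was at 0.

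The upstream windows of 4 of these genes show the CCAAT motif, the binding sequence of NF-Y, which class II promoters carry close to the start as an inverted copy, ATTGG. The motif was in 6 of the 8 windows of the 7 class II genes in the table (CD74, HLA-DMA, HLA-DPB1, HLA-DQB1, HLA-DRB1 and HLA-DRB5) and in 32.01% of all windows, so it is common.
CD74, chr5:150412911-150413160, minus strand: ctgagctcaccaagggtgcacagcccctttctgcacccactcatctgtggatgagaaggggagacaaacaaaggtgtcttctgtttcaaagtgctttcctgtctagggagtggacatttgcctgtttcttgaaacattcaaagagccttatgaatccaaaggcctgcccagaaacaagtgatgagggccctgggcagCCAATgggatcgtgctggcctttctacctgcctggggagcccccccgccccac
HLA-DRB1, chr6:32589849-32590098, minus strand: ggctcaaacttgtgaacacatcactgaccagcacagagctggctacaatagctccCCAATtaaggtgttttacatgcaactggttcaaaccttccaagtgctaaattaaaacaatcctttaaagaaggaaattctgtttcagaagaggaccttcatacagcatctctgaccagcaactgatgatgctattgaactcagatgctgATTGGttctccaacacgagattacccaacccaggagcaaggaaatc
HLA-DRB5, chr6:32530288-32530537, minus strand: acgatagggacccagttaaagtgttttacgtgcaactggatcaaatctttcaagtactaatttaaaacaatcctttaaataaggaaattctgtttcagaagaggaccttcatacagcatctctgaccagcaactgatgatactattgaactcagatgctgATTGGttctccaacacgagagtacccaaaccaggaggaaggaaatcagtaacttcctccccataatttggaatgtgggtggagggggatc
HLA-DQB1, chr6:32666658-32666907, minus strand: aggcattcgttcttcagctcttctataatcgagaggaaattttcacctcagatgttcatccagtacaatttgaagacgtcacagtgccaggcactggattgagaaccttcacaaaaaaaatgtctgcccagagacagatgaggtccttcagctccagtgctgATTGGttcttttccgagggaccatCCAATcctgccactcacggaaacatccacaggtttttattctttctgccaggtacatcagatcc
HLA-DRB1 and HLA-DRB5 were identical at 189 of 206 aligned positions of these windows, or 91.7%. The transcripts of these paralogs are known to be close, and their likeness was not measured here, so the split of counts between HLA-DRB1, at 82.3 CPM in clone 1 and 38.5 in clone 2, and HLA-DRB5, at 43.8 and 15.3 CPM, is uncertain. Both were lower in clone 2.

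Some targets of TGF-beta and YAP were higher in clone 2, with PMEPA1 the widest of the well-counted ones. PMEPA1, a TGF-beta target that dampens SMAD signalling, was at 16.8 CPM in control 1, 20.4 in clone 1, 11.6 in control 2 and 71.4 in clone 2, a difference of 1.81 (1.63 to 2.00). Clone 2 stood apart from the other 3 libraries. The matricellular protein CTGF was at 57.9 and 120.5 CPM in the clones, and THBS1, which can activate latent TGF-beta, at 47.7 and 101 CPM. Of the 21 compared members of the list, 5 were 2-fold higher (PMEPA1, F3, ANKRD1 and CTGF among them), where 2.34% of all genes were. None was 2-fold lower, and 13 had an interval above 0 and 2 below. The median was 0.23 and the controls' median 0.24, and with the authors' values it was 0.00. For F3, tissue factor, the controls had a wider difference than the clones, at 13.4 and 54.2 CPM against 14.5 and 42.8. The receptor TGFBR2 was lower in clone 2, at 215 and 146 CPM, and TGFB1 was even, at 109 CPM in each clone.

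The BMP arm of the same family had 3 of 24 members 2-fold higher, the inhibitory SMAD7, the pseudoreceptor BAMBI and INHBE, and none lower. Over all genes 2.34% were 2-fold higher. SMAD7 was at 33.5, 25.9, 42.9 and 58.8 CPM, with clone 1 lowest and clone 2 highest. GREM1, a secreted BMP antagonist, was at 404, 583, 377 and 1040 CPM, so both clones were above both controls and clone 2 was the higher of the clones.

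**Figure D2:**
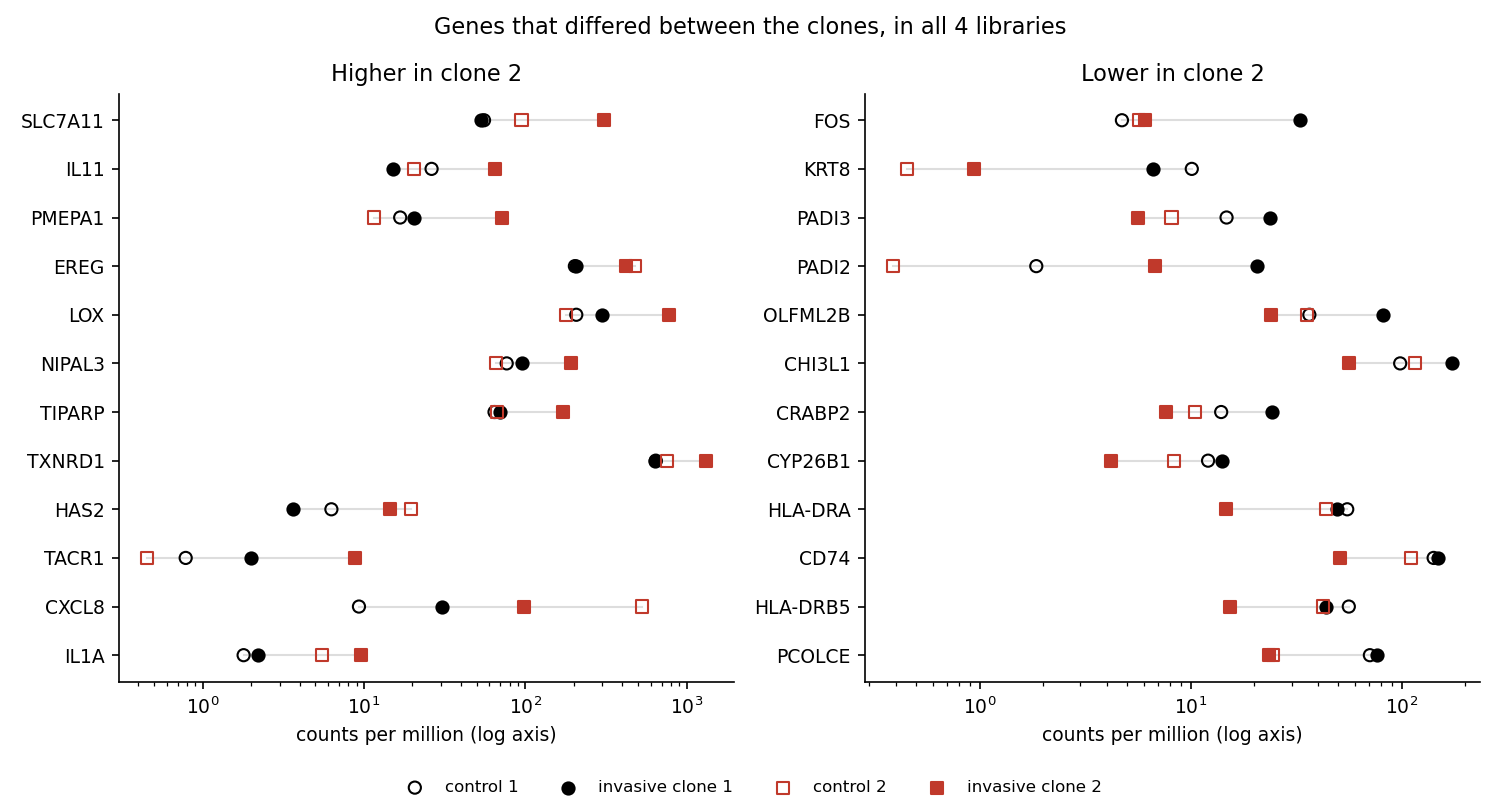
Levels of 12 genes higher and 12 genes lower in clone 2, in CPM on a log axis, 1 symbol per library. Circles are the first pair and squares the second, and filled symbols are the invasive clones. SLC7A11, LOX and PMEPA1 have clone 2 far right of the other 3 libraries, FOS and OLFML2B have clone 1 apart, and for PCOLCE and KRT8 the pairs separate.

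Genes of the extracellular matrix did not share 1 direction. LOX, which crosslinks collagen and elastin, was at 207 CPM in control 1, 298 in clone 1, 178 in control 2 and 780 in clone 2, a difference of 1.39 (1.34 to 1.44). Fibronectin FN1 was lower in clone 2, at 5609 CPM in clone 1 and 3254 in clone 2, with controls at 4260 and 2859. COL1A1 was at 624, 1458, 285 and 873 CPM: each clone was more than 2-fold above its own control, and clone 1 and control 1 were the higher of their kind. PCOLCE, which speeds procollagen cleavage, followed the pair and not the invasive state, at 70.5, 76.4, 24.4 and 23.6 CPM. Of 22 compared fibrillar collagen and processing genes, 1 was 2-fold higher (LOX) and 2 lower (PCOLCE and COL3A1), 9 had an interval above 0 and 7 below, and the median was 0.06, or -0.11 with the authors' values.

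Basement membrane genes leaned lower in clone 2, with 11 of 20 compared members below 0 beyond counting error, 3 above and 1 past 2-fold (COL15A1). Their median was -0.28 against -0.05 between the controls. Over all 14117 genes, 3372 were below 0 beyond counting error and 2885 above. The laminin chain LAMC1 was at 434, 564, 412 and 335 CPM, highest in clone 1 and lowest in clone 2. LAMA4 was at 78.3 CPM in clone 1 and 45.1 in clone 2, and the linker NID2 at 126 and 80.6 CPM. Among 17 integrin and related receptor genes, ITGA10, a collagen receptor chain, was the 1 past 2-fold, at 25.4 and 9.47 CPM. ITGA3, which pairs with beta 1 to bind laminins, was at 2043, 1985, 1214 and 1234 CPM and so followed the pair. ITGAV, the vitronectin receptor chain, was higher in clone 2, at 268 and 388 CPM.

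Some inflammatory mediators were higher in clone 2, and control 2 was far higher still for most of those. CXCL8, the neutrophil chemokine interleukin 8, was at 9.32 CPM in control 1, 30.6 in clone 1, 527 in control 2 and 97.9 in clone 2. IL1B, the proinflammatory interleukin, was at 15.9, 12.1, 572 and 29.6 CPM. In both cases control 2 was the outlying library, and the clones lay much closer together than the controls did. Of 10 compared chemokines 4 were 2-fold higher in clone 2 (CXCL8, CXCL5, CXCL3 and CCL3), with a median of 0.53 against 2.44 between the controls. Of all genes, 2.34% were 2-fold higher, and 15.5% of those with 20 to under 100 counts passed 2-fold in either direction. Of 15 interleukins and colony stimulating factors 5 were 2-fold higher (IL1A, IL11, IL33, IL24 and IL1B), with a median of 0.54 against 1.89. The summed CPM of the interleukin list was nearly even, at 320 in clone 1 and 324 in clone 2, and its calls numbered 3 with a minimum of 100 counts and 3 with the authors' values. The chemokine calls numbered 2 with that minimum. Of 19 NF-kB subunit and feedback genes, 5 had an interval above 0 and 6 below. Granulocyte factor CSF3 was at 25.8, 21.1, 907 and 12.7 CPM, so clone 2 was the lowest library. The summed leukocyte list was 22.9 CPM in clone 1 and 51.3 in clone 2 (23.9 and 62.9 in the controls), nearly all of it LCP1, with CD3E, NKG7 and CD52 at 0.

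IL11 broke from that order. The gene, whose product is an IL6-family cytokine that TGF-beta induces, was at 26.3 CPM in control 1, 15.2 in clone 1, 20.3 in control 2 and 65.2 in clone 2. Here clone 2 was apart from the other 3 libraries, the clones differed by 2.10 (1.89 to 2.32), and the controls by -0.37. The macrophage factor CSF1 was lower in clone 2, at 192 and 98.8 CPM, with controls at 163 and 142. The epidermal growth factor receptor ligand EREG followed the pair, at 203, 207, 477 and 420 CPM.

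**Figure D3:**
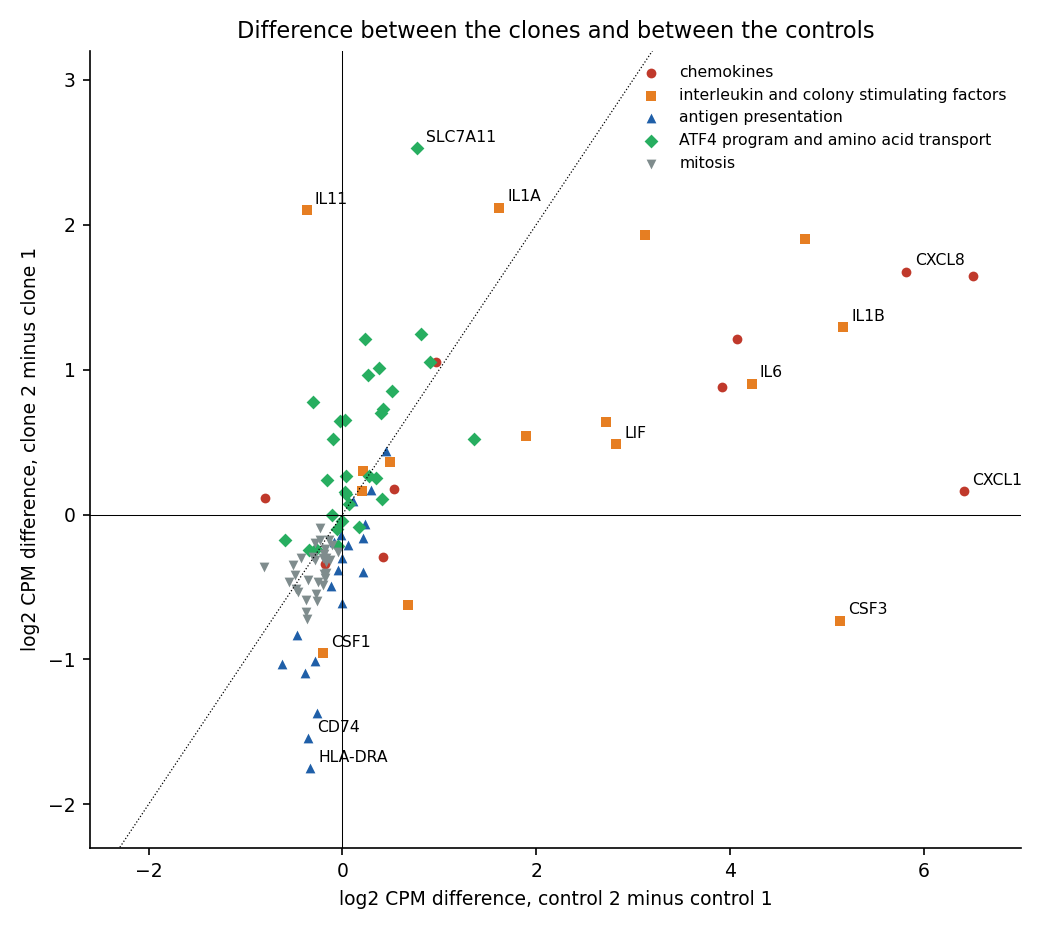
Members of 5 gene lists, with the log2 CPM difference between the controls on the x axis and between the clones on the y axis. The dotted line marks equal differences. Chemokines and interleukins such as CXCL8 and IL1B lie far right and well below the line, SLC7A11 and IL11 lie above it, and HLA-DRA and CD74 lie low with little difference between the controls.

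Genes of the mitosis and DNA replication lists were lower in clone 2 by small amounts and without exception in sign. All 32 mitosis genes had a difference below 0, from -0.72 for NUF2 to -0.09 for TTK, 31 of them beyond counting error, and the median was -0.35. None passed 2-fold. MKI67, the proliferation antigen Ki-67, was at 797 CPM in control 1, 729 in clone 1, 580 in control 2 and 504 in clone 2. Control 2 was below control 1 for this list as well, with a median of -0.26. All 32 DNA replication genes were also below 0, from -0.57 for FEN1 to -0.05 for RRM2, 26 of them beyond counting error, with a median of -0.26 but only -0.04 between the controls. The helicase subunit MCM7 was at 311, 289, 295 and 202 CPM, with the other 3 libraries within a narrow range. CCND1, the cyclin of early G1, went the other way, at 882 CPM in clone 1 and 1481 in clone 2.

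Targets of p53 had no 2-fold call among 23 compared, 13 with an interval above 0 and none below, and a median of 0.19 against 0.23 between the controls, or 0.02 with the authors' values. The cell cycle inhibitor CDKN1A was at 235, 257, 250 and 421 CPM, clone 2 being the high library. U87MG is known to carry wild-type p53. Heat shock genes had 12 of 17 members above 0 beyond counting error and none below. Their median was 0.27, or 0.10 with the authors' values, and the controls' median was -0.25. The chaperone DNAJB4 was at 15.8, 21.5, 11.9 and 40.9 CPM. CRYAB, a small heat shock protein, was at 1.796, 9.76, 1.23 and 15.3 CPM, so both clones were several times above both controls. Among 20 endoplasmic reticulum folding genes 3 were 2-fold higher, the unfolded protein response factor XBP1 and its targets HERPUD1 and DNAJB9, while chaperones such as HSP90B1, at -0.20, and PDIA4, at -0.28, were lower. That list's median was 0.14, or -0.03 with the authors' values, under which 0 members were 2-fold higher. With CPM, 2.34% of all genes were 2-fold higher.

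**Figure D4:**
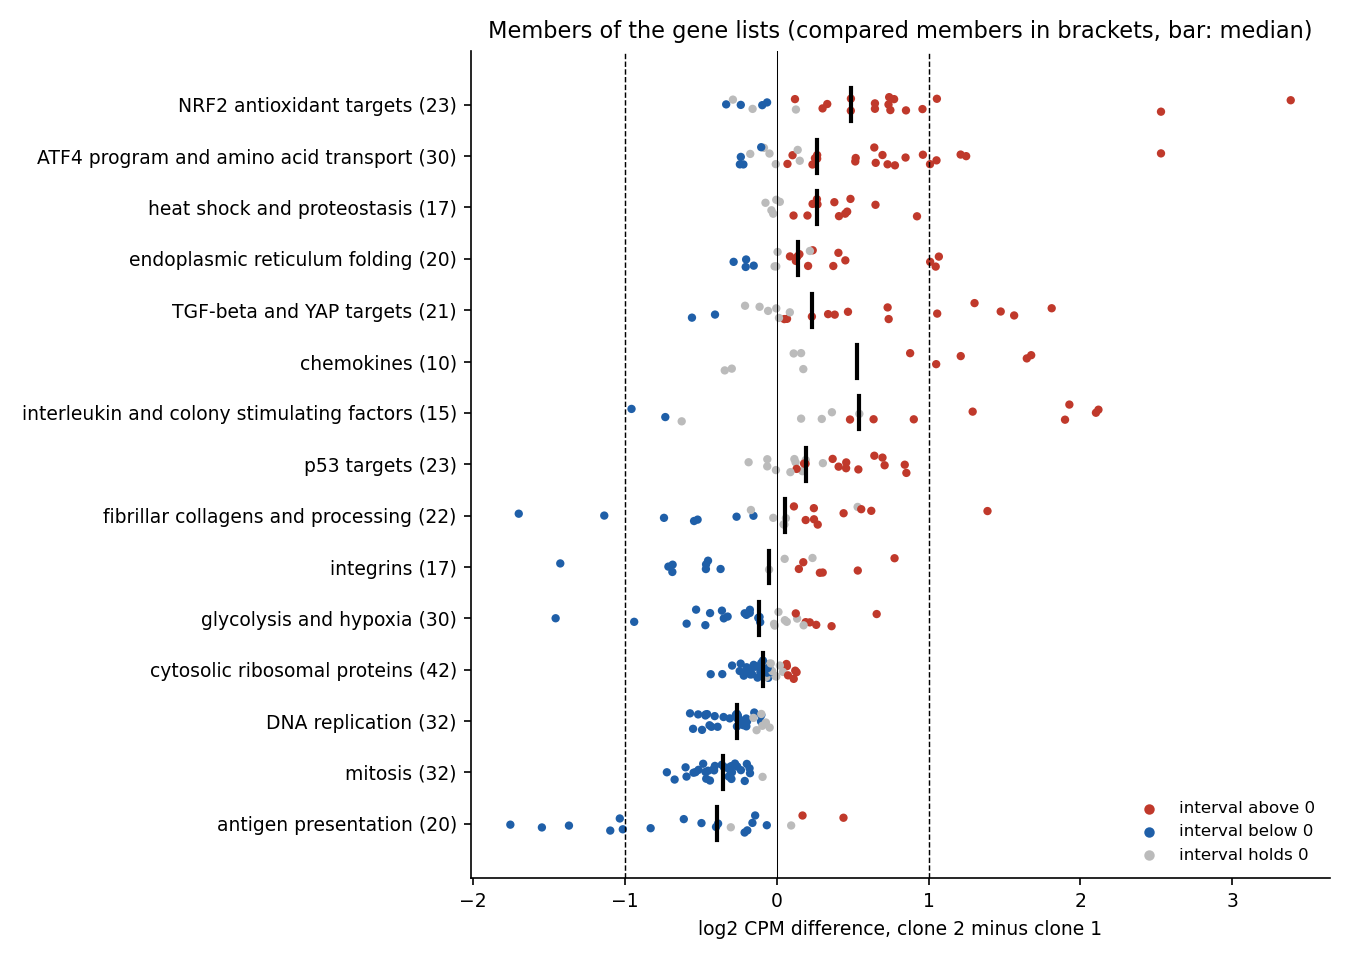
Log2 CPM difference (clone 2 minus clone 1) of every compared member of 15 gene lists, with a bar at each list's median and dashed lines at 2-fold. Colours tell whether the 95% counting interval lies above 0, lies below 0 or holds 0. DNA replication and mitosis genes lie wholly left of 0, and the antigen presentation list has its class II members at the far left.

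Several genes were highest in clone 1. FOS, the immediate early subunit of AP-1, was at 4.71 CPM in control 1, 32.9 in clone 1, 5.70 in control 2 and 6.07 in clone 2, a difference of -2.44 (-2.79 to -2.10). EGR1, which is induced alongside it, was at 34.6, 56.6, 41.4 and 27.1 CPM. Other early genes did not share this order: ATF3 was higher in clone 2, at 13.7 and 34.7 CPM, and of the 21 compared early genes 10 had an interval above 0 and 2, FOS and EGR1, below. The secreted olfactomedin protein OLFML2B was at 36.4, 81.3, 35.6 and 23.9 CPM and the matrix protein MATN2 at 40.7, 91.9, 34.1 and 42.5 CPM. CHI3L1, the secreted glycoprotein YKL-40 of mesenchymal glioblastoma, was at 98.1, 172, 115 and 56.0 CPM, with the clones on opposite sides of the controls.

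PADI2 and PADI3, peptidylarginine deiminases that convert arginine in proteins to citrulline, were lower in clone 2. PADI2 was at 1.85, 20.6, 0.388 and 6.80 CPM, so both clones were well above both controls and clone 1 was the highest library. PADI3 was at 14.8, 23.8, 8.09 and 5.64 CPM. Retinoid genes written as a list after these values were seen had 9 of 14 members compared, 2 of them 2-fold lower and 8 below 0. The intervals of STRA6 and ALDH1A2, both below 0, held 0. Among all compared genes, 1.91% were 2-fold lower and 47.6% were above 0. CRABP2, the retinoic acid carrier, was at 24.2 CPM in clone 1 and 7.59 in clone 2, and CYP26B1, which degrades retinoic acid, at 14.0 and 4.19 CPM. Of 8 aryl hydrocarbon receptor genes, listed in the same way, TIPARP and CYP1A1 were 2-fold higher in clone 2. The share of all genes 2-fold higher was 2.34%. TIPARP was at 64.5, 69.9, 67.1 and 171 CPM, with clone 2 apart, while CYP1B1 was at 253, 443, 336 and 759 CPM and AHRR was even in the clones, at 69.1 and 67.8 CPM.

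Some of the widest differences followed the pair. KRT8, an epithelial keratin, was at 10.1, 6.59, 0.453 and 0.940 CPM, so both libraries of the second pair were low. The intermediate filament gene NES was at 41.5, 33.7, 19.5 and 15.7 CPM and the carbonic anhydrase CA9, a hypoxia marker, at 53.7, 43.2, 24.02 and 15.8 CPM. HAS2, which makes hyaluronan, was at 6.29, 3.62, 19.7 and 14.5 CPM. In these genes the control of each pair stood nearer to its own clone than the clones stood to each other. Of the 30 glycolysis and hypoxia genes compared, CA9 was the 1 past 2-fold and the median was -0.12, against -0.26 between the controls.

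Notch pathway genes had 10 compared members and a median of 0.50. That median was 0.14 with a minimum of 100 counts and 0.04 with the authors' values. The receptor NOTCH3 was 2-fold lower in clone 2, at 32.7 and 14.6 CPM. The targets HES1 and HEY2 were 2-fold higher from low levels, HES1 at 1.42 and 4.70 CPM. Of all genes, 4.24% passed 2-fold in either direction, and of those with 20 to under 100 counts 15.5% did. NOTCH2 was close to even, at 569 and 629 CPM. Metallothioneins, which bind zinc and copper, had 5 of 7 compared members lower in clone 2 beyond counting error and a median of -0.34, while control 2 was above control 1 with a median of 1.06. Housekeeping families differed by small amounts. The 42 cytosolic ribosomal protein genes had a median of -0.09, against -0.08 between the controls, and no 2-fold call. Beyond counting error, 28 of them were below 0 and 6 above, where 3372 of all 14117 genes were below and 2885 above. The 13 mitochondrially encoded genes had a median of 0.00.

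Beyond these programs, some of the widest differences were in genes with few reads. C4orf26 had 5 counts in clone 1 and 69 in clone 2, a difference of 3.95 (2.66 to 5.62). CD300C, a receptor of myeloid cells, had 1 and 29 counts, a difference of 5.02 with an interval from 2.43 to 10.37. TIMP3, an inhibitor of matrix metalloproteinases, had 4 and 26 counts. For each of them the counting interval spans several doublings, and control 2 was above control 1 as well. AMIGO2, a cell adhesion molecule, is a well-counted case, at 41.2, 45.0, 29.1 and 123 CPM, with clone 2 apart.

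Adhesive glycoproteins and proteases were mixed. Of 23 matricellular genes 5 were 2-fold higher (THBS1, CTGF, FBLN5, MFAP5 and FBLN2) and 1 lower, THBS2, a relative of THBS1 that was at 69.8 CPM in clone 1 and 34.5 in clone 2. The median was 0.11, or -0.16 with the authors' values. Across all genes 2.34% were 2-fold higher and 1.91% lower. TGFBI, a secreted TGF-beta target, was at 2416, 3481, 1834 and 4599 CPM, so both clones were above both controls. Stromelysin MMP3 was at 153, 222, 3183 and 373 CPM, which repeats the order of CXCL8 with control 2 far above the rest. Of 27 protease and inhibitor genes 3 were 2-fold higher (ADAMTS5 and TIMP3 among them), none lower, and the median was 0.04. That median was not recomputed with the authors' values. The aggrecanase ADAMTS5 followed the pair, at 49.9, 48.7, 114 and 98.5 CPM.

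The main growth factor receptors differed little between the clones. EGFR was at 238 CPM in clone 1 and 225 in clone 2, the hepatocyte growth factor receptor MET at 512 and 503, and FGFR1 at 261 and 240. PDGFRA was the receptor of this group that was 2-fold lower in clone 2, at 2.64, 6.85, 1.04 and 2.60 CPM, with each clone above its own control, and KIT was 2-fold higher on 28 counts. The bradykinin receptors BDKRB1 and BDKRB2 were both lower in clone 2, BDKRB1 at 16.1, 23.9, 50.2 and 10.1 CPM and BDKRB2 at 12.7, 16.4, 21.4 and 5.35. For both, control 2 was the highest library and clone 2 the lowest. The soluble pattern receptor PTX3 had the same order, at 23.6, 36.7, 93.1 and 15.9 CPM. Lists of 17 mesenchymal transition factors, 14 HOX genes, 27 semaphorins and related guidance genes and 16 cadherins had no member past 2-fold in either direction.

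Several called genes lie in places where reads are hard to assign. The libraries were strand-specific, but the sources do not say whether strand was used in counting. FTH1P15, a ferritin pseudogene at 2.20 and 9.62 CPM in the clones, resembles FTH1, which was higher in clone 2 too. MIR6087, at 2.13 and 17.9 CPM, overlaps RNA28S5. PDXP overlaps SH3BP1 and TXNDC5 overlaps BLOC1S5-TXNDC5, and their levels, 1.95 and 4.05 CPM in clone 2, may depend on how shared reads were handled. MATN2 overlaps RPL30, a ribosomal protein gene with 29452 counts over the 4 libraries, PTX3 overlaps VEPH1, with 2986, and CA9 overlaps ARHGEF39, with 758. The levels of these 3 genes are uncertain for that reason. ACTA2 was at 36.5 and 83.2 CPM, and its coding sequence is close to those of other actins.

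Over whole chromosomes the differences were small. Among genes with 100 or more counts over the clones, chromosome medians ran from -0.17 on chromosome 22 to 0.10 on chromosome 18. Part of this pattern was also present between the controls, where chromosome 22 had -0.13 and chromosome 17, at -0.14 between the clones, had -0.11. Differences also fell with base composition. Between the clones the median went from 0.07 in the fifth of genes with the lowest GC content to -0.10 in the highest. Between the controls it went from 0.08 to -0.08. After centring by GC content, the clone medians were -0.09 on chromosome 22, -0.09 on chromosome 17 and 0.08 on chromosome 18. Chromosome 9 went from 0.09 to 0.11. Within chromosomes, medians of windows of 50 consecutive genes, not centred by GC content, ran from -0.36 to 0.26. The lowest window, from NES to ALDH9A1 on chromosome 1, had a median of -0.18 between the controls. CRABP2 and OLFML2B also lie in it. The part of GC content in the gene lists was not tested.

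Chromosome 14 had the widest gap between the clones' and the controls' medians. Its 384 genes had a median of -0.11 between the clones but 0.07 between the controls, and 31.2% of them were above 0. Clone 1 was above control 1 there by a median of 0.22, with chromosome 19 next at 0.09, and above control 2 by 0.15, while clone 2 was above control 2 by 0.02. In 8 consecutive blocks along the chromosome, the median of clone 1 over control 1 ran from 0.17 to 0.28, so that shift was not set by 1 region. The difference between the clones was less even. Its block medians were all below 0 but ran from -0.24 in block 2 to -0.02 in block 4. Centred by GC content, these 2 blocks had -0.21 and -0.05. For the whole chromosome, centring by GC content left a median of -0.11 between the clones. FOS lies on this chromosome, and its difference is many times the chromosome's median.

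**Figure D5:**
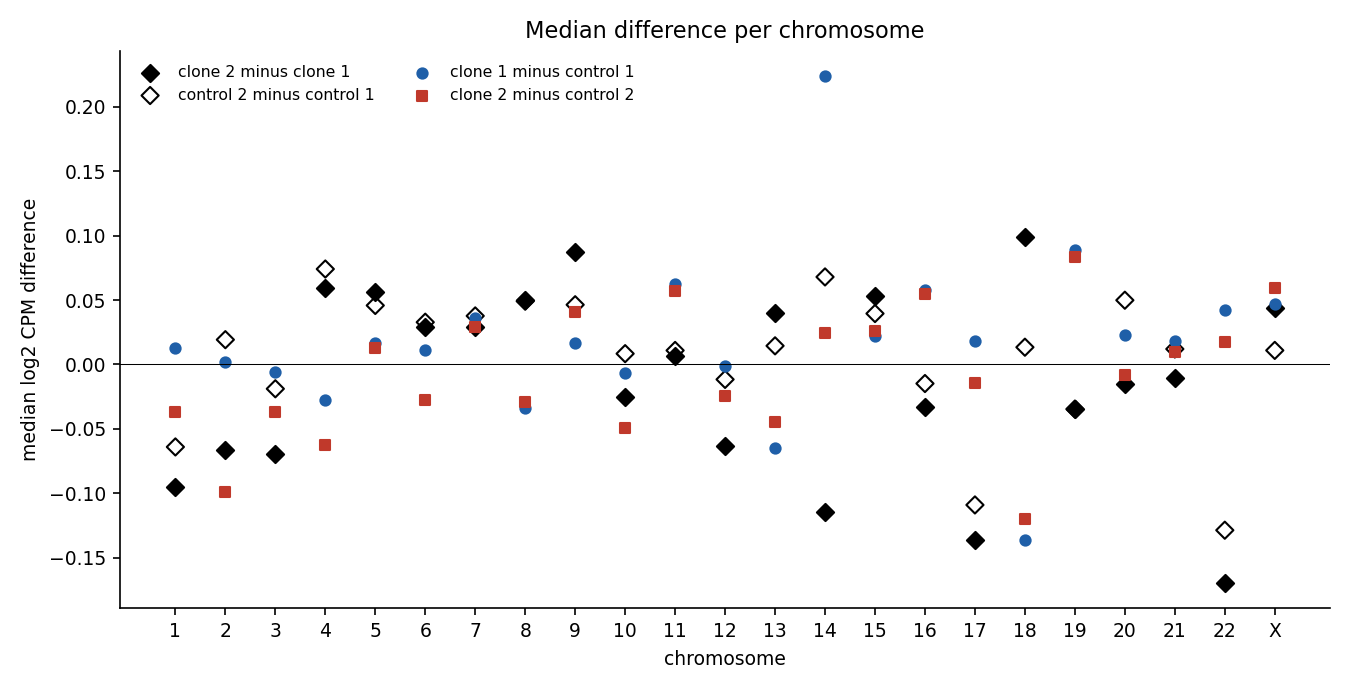
Median log2 CPM difference per chromosome over genes with 100 or more counts, with black diamonds for clone 2 minus clone 1, open diamonds for control 2 minus control 1, and blue and red for each clone minus its own control. Chromosome 14 has clone 1 at 0.22 above control 1, and there the black and open diamonds lie on opposite sides of 0.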

How the data were processed

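Poly(A) RNA was sequenced from 2 invasive clones and 2 controls, 1 library each. The submitters' processing notes name the build GRCh38 and the tools DESeq2, HTSeq, Bowtie, TopHat2 2.0.12 and bcl2fastq 1.8.4. The kit marks strand, per the labels' protocols; the sources do not say if counting used it. The deposited raw tables hold whole-number counts per gene. The authors normalized the counts between libraries by a method not stated and deposited whole numbers named normalized counts, per the file headers, which are treated as a score here and used only as an alternative.

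From the counts, CPM and log2 ratios were computed in Python 3.11.15 (scipy 1.17.1), over genes with 20 or more counts in the 2 clones. A count of 0 was set to 3. Intervals were Clopper-Pearson at 95%. The ratio and its interval were tested on simulated data. No comparison was tested across samples, since each group has 1 library. Alternatives used edgeR 4.0.16 TMM factors, DESeq2 1.42.0 size factors, other minimums, a pseudocount and the authors' values, and for the chromosomes also windows, a minimum of 500 counts and GC content from GENCODE transcripts.

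The comparison, its members and the gene lists were chosen with earlier results of these data known. Genes were named by rule: the 15 protein-coding genes per direction with the interval farthest from 0, the 8 with the largest CPM difference, up to 4 called and 4 other members per list by counts, 4 per class of the controls' place, the 10 most counted and 5 non-coding genes per direction. Other named genes, and the class II, retinoid and aryl hydrocarbon receptor sets, were picked after their values were seen. Of the 48 lists and 8 marker lists, those that bear on the comparison are described. A few genes are not reported here.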

Additional observations from a re-analysis of the deposited data

Results flagged for a closer look

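Only the genes named for the interval farthest from 0 or for the largest CPM difference were searched here. For 8 of those reported, each clone lay on the opposite side of its own control from the other clone, with both counting intervals away from 0. These differences between pairs were not tested. The values are clone 2 minus control 2, less clone 1 minus control 1, on the log2 scale. IL11 had 2.47, from 1.68 in the second pair and -0.79 in the first. The cyclin CCND1 had 0.36, from 0.12 and -0.24. The other 6 were above their control in clone 1 and below it in clone 2. The gap junction gene GJB2 had -2.81, from -2.09 and 0.72, on 102 counts over the clones. CHI3L1 had -1.85, OLFML2B -1.74, CRABP2 -1.26, PADI3 -1.21 and LAMC1 -0.68. Genes named by other rules were not searched, and some of them met the same criterion. CXCL8 was among these, at 1.72 in the first pair and -2.43 in the second, as were PTX3, BDKRB1 and HLA-DRB1.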

How the results depend on the processing

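The counts of called genes followed the minimum and the set of genes. With a minimum of 100 counts, 96 genes were 2-fold higher in clone 2 and 93 lower, and with no minimum 3162 and 2432. With a pseudocount of 0.5 CPM they were 165 and 136. The authors' normalized values gave 39 and 94. Settings chosen after seeing the data were the same values shifted to the CPM median, with 68 and 47, and CPM over the same genes, with 66 and 46, of which 31 and 24 were past 2-fold with the counting interval. TMM factors (311 and 295) and DESeq2 size factors (329 and 269) stayed within 1.5 times. Of 86 named genes followed through the settings, none changed sign and 74 kept their side of 2-fold wherever they were listed. This is a weak check, because most settings could hardly change these ratios and the genes were picked for wide differences. The minimums leave each ratio as it was, and TMM and DESeq2 factors shift all genes by -0.027 and -0.003. The authors' values, with a median shift of -0.17, covered 57 of the 86. SLC3A2, TXNRD1, EREG, NIPAL3 and ADAMTS5 were under 2-fold with the authors' values, and the same genes other than TXNRD1 with TMM factors. Among the list medians recomputed with the authors' values, those of the endoplasmic reticulum folding, fibrillar collagen, contractile (-0.02) and matricellular (-0.16) lists fell below 0. Other lists, such as proteases and inhibitors, were not recomputed. No paired analysis was possible because each group has 1 library and no test was run. Depth limits genes under 100 counts most, and the variation between cultures is unknown with 1 library per clone.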

Other observations

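Some non-coding genes also differed between the clones. LINC01164, a long intergenic RNA, was at 0.449 CPM in control 1, 0.388 in clone 1, 0.0647 in control 2 and 3.76 in clone 2, so clone 2 stood apart. LINC01119 was at 8.08, 15.2, 3.76 and 4.56 CPM, with the first pair above the second. AC021218.2 was at 6.01, 6.47, 7.38 and 1.74 CPM, low in clone 2 only.

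The genes with the most counts hardly differed between the clones. Vimentin VIM had a difference of 0.21, GAPDH -0.21, ACTB 0.16 and MT-CO1 -0.01, while FN1, at -0.79, and FTH1, at 0.74, were the widest of these 10. The contractile genes ACTA2, at 1.19, TPM1, at 0.67, and CALD1, at 0.43, were higher in clone 2, and MYLK was lower by -0.63. TACR1, the substance P receptor, was at 0.786, 2.00, 0.453 and 8.82 CPM, low in both controls and highest in clone 2.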
